A study of Rattus norvegicus with 43 samples.

Results

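The insulin-like growth factor (IGF) system was examined in the anterior pituitary gland through 9 genes, which are the ligands Igf1 and Igf2, the receptors Igf1r and Igf2r, and the binding proteins Igfbp2, Igfbp3, Igfbp4, Igfbp5 and Igfbp6, out of 14217 genes named on the array. The genes were taken by name, and a probe set was counted for a gene only where the platform annotation gave that gene symbol alone, which gave 22 probe sets of the 31042 that are not array controls. Each gene was represented by its probe set with the highest mean, and the remaining probe sets are given beside it. The arrays came from 43 male COPxACI F2 rats, 1 array per animal, all carrying a 5 mg implant of diethylstilbestrol (DES, a synthetic estrogen) placed at 9 weeks of age and left for 12 weeks, until sacrifice at 21 weeks. Bromodeoxyuridine, which dividing cells take up, was injected at 50 mg/kg 4 hours before sacrifice. Every animal was treated, so the series has no untreated reference, and the animals are 1 group. They had been chosen from both ends of the weight distribution of the pituitary, 22 with the heaviest glands and 21 with the lightest. The labels do not give the weight class of any animal, and no comparison by weight was made. Every result below is therefore a description of how the 9 genes varied among 43 treated animals.

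IGF ligands act through the receptor tyrosine kinase Igf1r, which signals through the insulin receptor substrates to the PI3 kinase and MAP kinase cascades. Igf2r has no kinase of its own, takes Igf2 to the lysosome for degradation and also sorts lysosomal enzymes that carry mannose 6-phosphate. The binding proteins hold the ligands outside the cell and set how much of them reaches the receptor, and proteases release the ligands again. In the pituitary, Igf1 is best known for the negative feedback it exerts on growth hormone, and estrogen is known to act on several genes of the system in other tissues.

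Levels are log2 of the deposited intensity plus 16, a scale that understates the change of dim probe sets. A probe set was tested where its mean level was above 7.16, the median of all probe sets that are not controls, as was true of 15521 probe sets. All 9 genes passed through their representative, and 5 of the 22 probe sets did not pass. The brightness of different probe sets cannot be compared, so levels are compared only among animals and never among genes. In whole tissue, fewer cells of a type and less RNA per cell cannot be told apart. The lactotroph hormone Prl had a mean level of 15.61 ± 0.14 and the somatotroph hormone Gh1 one of 14.97 ± 0.41 (SD, n = 43), as the labelled tissue should have, and neither of the posterior lobe markers Avp and Oxt passed the filter. Array medians lay between 123.1 and 142.0 intensity units. Animal 43 gave an array unlike the rest, whose mean correlation with them was 0.927, against 0.967 to 0.976 among the other 42, and with a difference between the 3' and 5' actin probe sets, a sign of RNA integrity, of 1.97 against 1.26 to 1.67. The replicates are separate animals, and precision is limited by how many arrays there are.

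The animals carry numbers from 1 to 43 in the labels, and the meaning of the numbers is not stated. The break between animals 22 and 23 used below was taken from earlier results of these data. It leaves 21 animals numbered 23 to 43 and 22 numbered 1 to 22, and these sizes equal those of the weight classes. The labels do not tie any number to a class, and no class was assigned from the numbers. Numbers were treated as a covariate and not as a group of the study. What they stand for was not tested, and an effect of processing order, of pituitary weight or of anything else that follows the number cannot be told apart.

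The upstream sequences of 3 members are printed here. They are Igfbp5, its neighbour Igfbp2, which was higher with it over the 43 animals, and Igf1, which was lower with it. Igfbp2 and Igfbp5 lie next to each other on chromosome 9, on opposite strands and with 0 annotated genes between them. The sequences are the 250 bases before the annotated start of each gene in the RefSeq annotation of build GRCr8, 5′ to 3′ on the strand of the gene, at chr9:81864561-81864810 (plus strand) for Igfbp2, chr9:81914188-81914437 (minus strand) for Igfbp5 and chr7:24172282-24172531 (plus strand) for Igf1. Capitals mark GGGCGG, the GC box.
Igfbp2: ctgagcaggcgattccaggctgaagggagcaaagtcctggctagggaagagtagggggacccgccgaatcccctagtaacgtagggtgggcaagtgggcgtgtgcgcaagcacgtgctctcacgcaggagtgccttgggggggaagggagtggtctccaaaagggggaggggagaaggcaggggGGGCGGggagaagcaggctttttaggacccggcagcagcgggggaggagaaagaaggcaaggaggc
Igfbp5: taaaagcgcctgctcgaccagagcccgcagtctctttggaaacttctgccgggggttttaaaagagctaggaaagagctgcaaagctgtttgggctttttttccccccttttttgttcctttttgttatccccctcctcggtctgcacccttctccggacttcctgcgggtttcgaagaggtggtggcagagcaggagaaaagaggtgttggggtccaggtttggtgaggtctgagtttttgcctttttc
Igf1: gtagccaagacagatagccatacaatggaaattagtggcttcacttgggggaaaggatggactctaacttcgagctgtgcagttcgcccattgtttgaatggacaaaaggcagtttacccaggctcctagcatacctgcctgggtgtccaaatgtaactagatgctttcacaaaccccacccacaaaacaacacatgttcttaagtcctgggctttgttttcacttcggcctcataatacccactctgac

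The windows were searched on both strands for AGGTCA, the core of the estrogen response element, for GGGCGG and for TATAAA, and no occurrences of these motifs overlapped. AGGTCA stood in 0 of the 10 windows of the 9 members (Igf2 has a pair of annotated starts), and 14.1% of 33469 rat windows of this length held it. GGGCGG stood in the windows of Igfbp2, Igf1r, Igf2r and the second start of Igf2, against 30.5% of all windows, and TATAAA stood in that of Igfbp4 alone, against 12.9%. The Igfbp2 window was 64% G and C and the Igfbp5 window 51.6%. A match is a description of the letters only.

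Among the ligands, Igf1 had an intensity of 568.3 in the lowest animal, 820.2 in the median animal and 1291 in the highest, a level of 9.74 ± 0.27 (SD, n = 43). The highest animal was 2.24 times the lowest on the scale with 16 added. Igf2, the fetal growth factor expressed from the paternal allele, ran from an intensity of 38.9 through a median of 152.3 to 288.1, a level of 7.37 ± 0.59. Igf2 thus varied more widely, with 5.54 times between the extremes, and animal 37 was lowest and animal 14 highest for both ligands. Of the other probe sets of Igf1, the one passing the filter correlated with the representative at r = 0.34 over the 43 animals and the one not passing at r = 0.30. None of the other 3 probe sets of Igf2 passed, and their r with the representative lay between -0.31 and -0.13, so Igf2 rested on 1 dim probe set.

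Of the receptors, Igf1r ran from an intensity of 1324 through a median of 1585 to 2091, a level of 10.69 ± 0.16, the narrowest range of the 9, at 1.57 times between the extremes. Igf2r ran from 515.0 through 1299 to 1787, a level of 10.32 ± 0.30. Its lowest value belonged to animal 43, the array that stood apart. Without that animal the lowest level was 9.81 in place of 9.05 and the SD was 0.23. The other probe sets of the receptors correlated only moderately with the representatives, at r = 0.34 for Igf1r and 0.47 for Igf2r, and both had their lowest value in animal 43 as well.

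Of the binding proteins, Igfbp5, which binds to extracellular matrix, ran from an intensity of 1782 through a median of 3945 to 6224, a level of 11.88 ± 0.39. Animal 4 was lowest and animal 38 highest. Igfbp2 ran from 127.6 through 338.8 to 544.3, a level of 8.44 ± 0.43, and animal 4 was again lowest. Igfbp3, the main carrier of IGFs in blood, ran from 418.5 through 724.6 to 1107, a level of 9.45 ± 0.32. Igfbp4, a target of the protease Pappa, ran from 299.5 through 561.4 to 1108, a level of 9.18 ± 0.36. Igfbp6, which prefers Igf2 as its ligand, ran from 109.8 through 248.8 to 374.1, a level of 7.96 ± 0.35. The binding proteins thus spanned 2.59 to 3.90 times between their extreme animals. Probe sets of 1 gene agreed best for Igfbp5, at r = 0.87 and 0.84 with the representative for 2 of the 4 others, while the remaining 2 stood at 0.58 (not passing the filter) and 0.23. The second probe set of Igfbp3 stood at 0.50 and that of Igfbp6 at 0.60, and Igfbp2 and Igfbp4 have 1 probe set each.

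**Figure D1:**
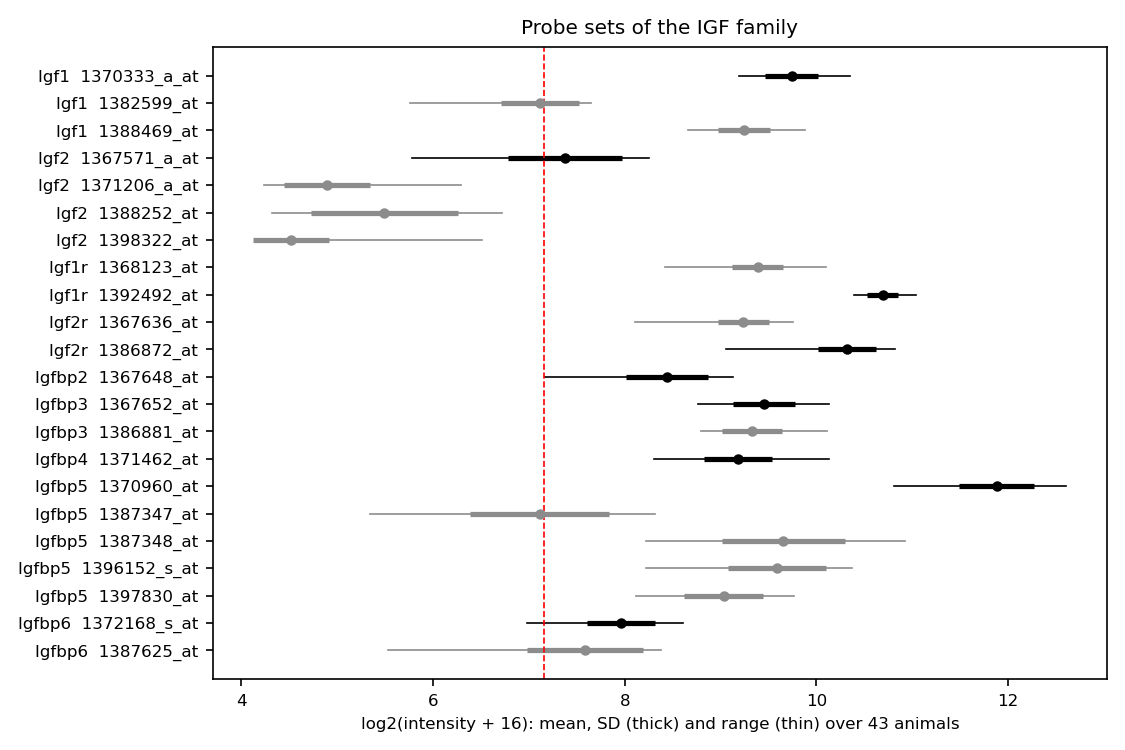
Level of each of the 22 probe sets as log2 of intensity plus 16, with the mean (point), SD (thick line) and range (thin line) over 43 animals. Black marks the representative of a gene, grey the others, and the dashed line the filter at 7.16. Igf1r has the shortest black SD line, and the 3 grey probe sets of Igf2 lie left of the filter.

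The spread of each member was set beside that of the 200 probe sets nearest to it in mean level. The SD of Igfbp5 stood at percentile 99 of them, Igf2 at 95.5, Igfbp2 at 95, Igfbp3 at 93, Igfbp4 at 91.5, Igf2r at 90, Igfbp6 at 83.5, Igf1 at 82.5 and Igf1r at 37.5. So 8 of the 9 members varied more than the median probe set of like brightness, and 5 stood above percentile 90. For Igf2r this place includes animal 43.

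How the levels ran over the animal numbers was then asked of every tested probe set with a smooth curve (limma moderated F test of a natural spline with 4 degrees of freedom, Benjamini-Hochberg adjustment over all probe sets). The curve passed for 6 of the 9 members, or 66.7%, beside 42.1% of all tested probe sets. The clearest were Igfbp5 (adjusted p = 2.02e-05, the curve holding 56.4% of the variance), Igf2 (adjusted p = 7.70e-05, 51.2%) and Igf2r (adjusted p = 0.000219, 49.1%). Igfbp6 (adjusted p = 0.00151), Igfbp2 (0.00631) and Igf1 (0.00667) also passed. Igf1r (0.216), Igfbp3 (0.223) and Igfbp4 (0.270) did not pass.

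The 6 members ran in different directions. Igfbp5 had a median level of 12.07 (range 11.72 to 12.61) in animals 23 to 43 and 11.67 (10.81 to 12.24) in animals 1 to 22. Igfbp2 had a median of 8.70 in animals 23 to 43 and 8.20 in animals 1 to 22, and for both genes all 21 animals numbered 23 to 43 lay above the median of animals 1 to 22. Igf1 had a median of 9.62 in animals 23 to 43 and 9.93 in animals 1 to 22, and Igf2r one of 10.23 in animals 23 to 43 and 10.50 in animals 1 to 22. For Igf1 and Igf2r all 21 animals lay below the median of the first 22. Having all 21 animals on one side was seen in 4.53% of tested probe sets, 2.31% above and 2.22% below.

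Igf2 followed with a median of 7.11 in animals 23 to 43 and 7.80 in animals 1 to 22, with 19 of 21 animals below the median of the others, and Igfbp6 with 7.74 in animals 23 to 43 and 8.14 in animals 1 to 22, with 20 of 21 below. Their ranges overlapped, as they did for every member. The second probe set of Igfbp6 moved the same way, with 21 of 21 animals below (adjusted p = 3.02e-05). Those of the ligands and receptors did not always follow. The second passing probe set of Igf1 had 11 of 21 animals below (adjusted p = 0.0587) and that of Igf2r 9 of 21 (adjusted p = 0.817), while that of Igf1r passed (adjusted p = 0.0142) where its representative did not. Of the other passing probe sets of Igfbp5, a pair passed (adjusted p = 1.33e-05 and 0.000141) and 1 did not (0.508).

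**Figure D2:**
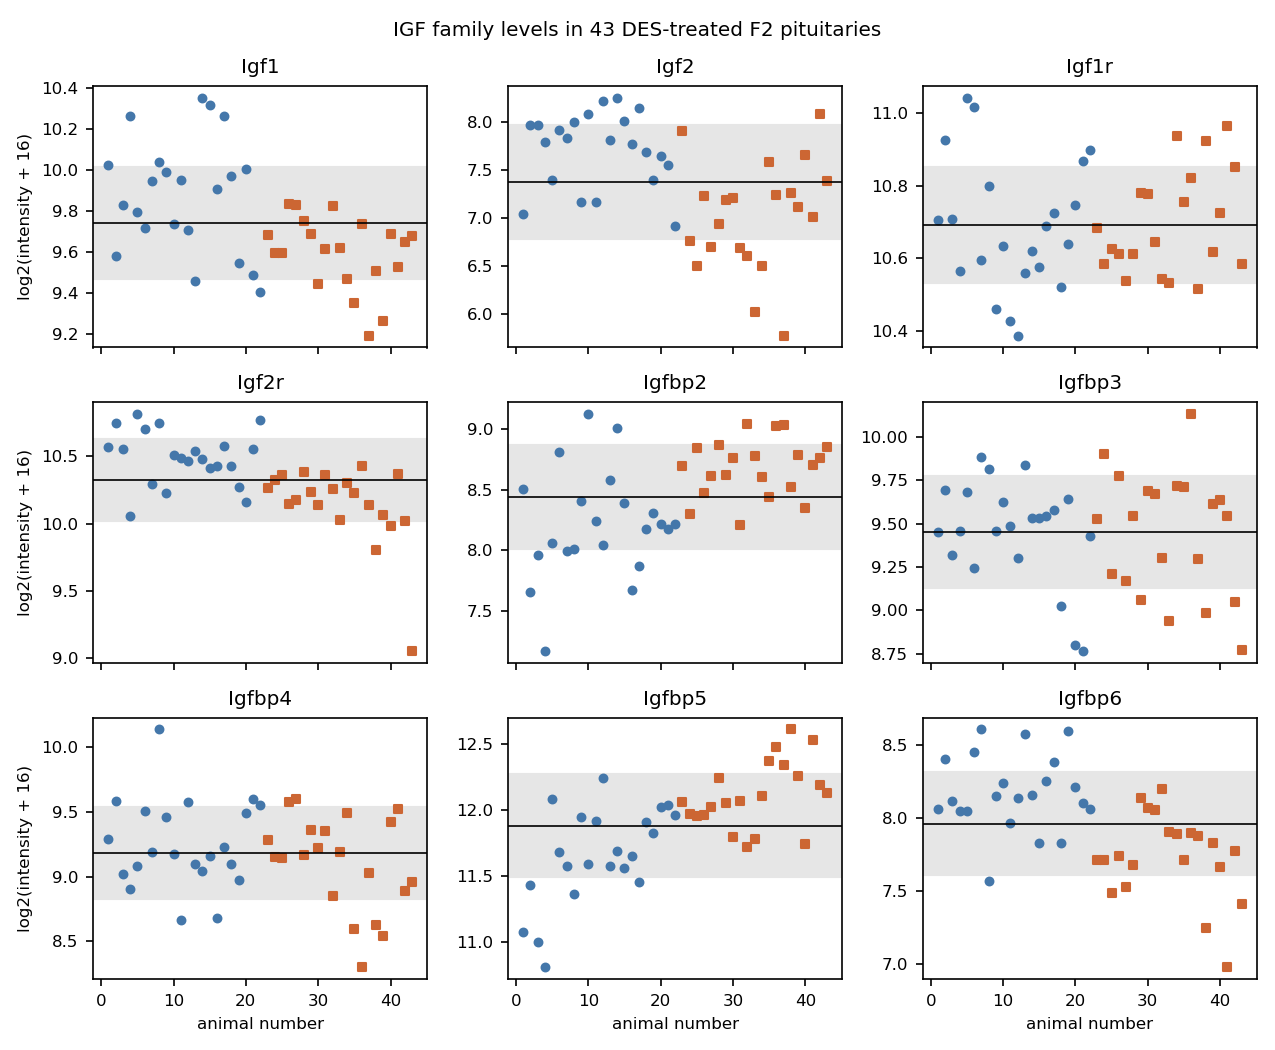
Level (log2 of intensity plus 16) of each member against the animal number, with circles for animals 1 to 22 and squares for animals 23 to 43. The line is the mean and the band 1 SD over 43 animals. All squares of Igfbp2 and Igfbp5 lie above the median of the circles, all squares of Igf1 and Igf2r below it, and the lowest Igf2r point is animal 43.

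Whether members varied together was tested by fitting every tested probe set on the level of each member in turn (limma, Benjamini-Hochberg adjustment over all probe sets). The share of all probe sets that passed differed widely between predictors. It was 0.902% for Igf1, 5.79% for Igf2, 0.573% for Igf1r, 37.5% for Igf2r, 4.01% for Igfbp2, 0.142% for Igfbp3, 0.0129% for Igfbp4, 9.18% for Igfbp5 and 18.5% for Igfbp6. Leaving out animal 43 moved 4 of these shares by more than 1.5 times, to 2.23% for Igf1, 1.5% for Igf1r, 14.7% for Igf2r and 0.0129% for Igfbp3. A pair was called only where both of its fits passed, and 4 of the 36 pairs were. Igfbp5 stood in 3 of them.

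Igf1 was lower where Igfbp5 was higher, at r = -0.566 (two-sided permutation p = 0.0001) and rho = -0.544 (permutation p = 0.00024) over 43 animals. Both fits of the pair passed, with adjusted p = 0.0193 on Igf1 and 0.00248 on Igfbp5. Without the 2 animals farthest from the median of Igf1 r was -0.574. Within animals 23 to 43 r was -0.386 and within animals 1 to 22 it was -0.369, so the direction held in each. All 8 combinations of the passing probe sets of both genes had a negative r, from -0.566 to -0.134, several of them sharing a probe set. The call was lost without animal 4, at r = -0.507 and adjusted p = 0.0725, and with the mean of all probe sets of each gene, at r = -0.308 and adjusted p = 0.418. With the step between animals 22 and 23 in the model r was -0.374 and the pair did not pass either.

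Igfbp5 and Igfbp6 were also opposed, at r = -0.493 (permutation p = 0.00088) and rho = -0.510 (permutation p = 0.00066), with adjusted p = 0.0122 and 0.00756. Without the 2 farthest animals r was -0.546. Within animals 23 to 43 r was -0.506 and within animals 1 to 22 it was 0.031, so the relation did not hold in animals 1 to 22. The 8 combinations of passing probe sets were again negative in every case, and leaving out any 1 animal kept the call.

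The neighbours Igfbp2 and Igfbp5 were higher together, at r = 0.492 (permutation p = 0.00087) and rho = 0.384 (permutation p = 0.0118), with adjusted p = 0.0239 and 0.0118. Within animals 23 to 43 r was 0.112 and within animals 1 to 22 it was 0.287, and without the 2 farthest animals, 2 and 4, it was 0.321. The call was lost without animal 4 (r = 0.365, adjusted p = 0.140) and without animal 2 (r = 0.467, adjusted p = 0.05004), so it rested on these animals. Of the 4 combinations of passing probe sets 3 had a positive r.

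The other positive pair included a receptor. Igf2r and Igfbp6 were higher together at r = 0.425 (permutation p = 0.00502) and rho = 0.405 (permutation p = 0.00713), with adjusted p = 0.0125 and 0.0263. Within animals 23 to 43 r was 0.270 and within animals 1 to 22 it was -0.159. Without the 2 farthest animals, 38 and 43, r was 0.273, and the call was lost without animal 43 (r = 0.362, adjusted p = 0.0870) and without animal 38 (r = 0.373, adjusted p = 0.0655). Here too 3 of the 4 combinations of passing probe sets were positive. The call was also lost with the difference between the 3' and 5' actin probe sets as a covariate.

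The ligands passed in 1 of their 2 fits with all animals, and in both without animal 43 (r = 0.478), so that they met the rule for a called pair there. Igf1 and Igf2 stood at r = 0.477 (permutation p = 0.00126) and rho = 0.413 (permutation p = 0.00653), with adjusted p = 0.0267 on Igf2 and 0.0578 on Igf1, and at r = 0.225 within animals 23 to 43 and 0.305 within animals 1 to 22. Without the 2 farthest animals r was 0.405. Igf2r and Igfbp3 likewise passed only in the fit on Igf2r (r = 0.393, permutation p = 0.00868, rho = 0.234, permutation p = 0.130, adjusted p = 0.0230), with r = 0.250 without animal 43.

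With the step in the model 0 of 36 pairs passed (limma), while 3 of them had an unadjusted p under 0.05 in both fits, against 12 without the step. With the smooth curve over animal numbers in the model 1 pair passed, Igf1r with Igf2r, beside 4.77% of all probe sets in the fit on Igf1r and 20.7% in the fit on Igf2r.

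**Figure D3:**
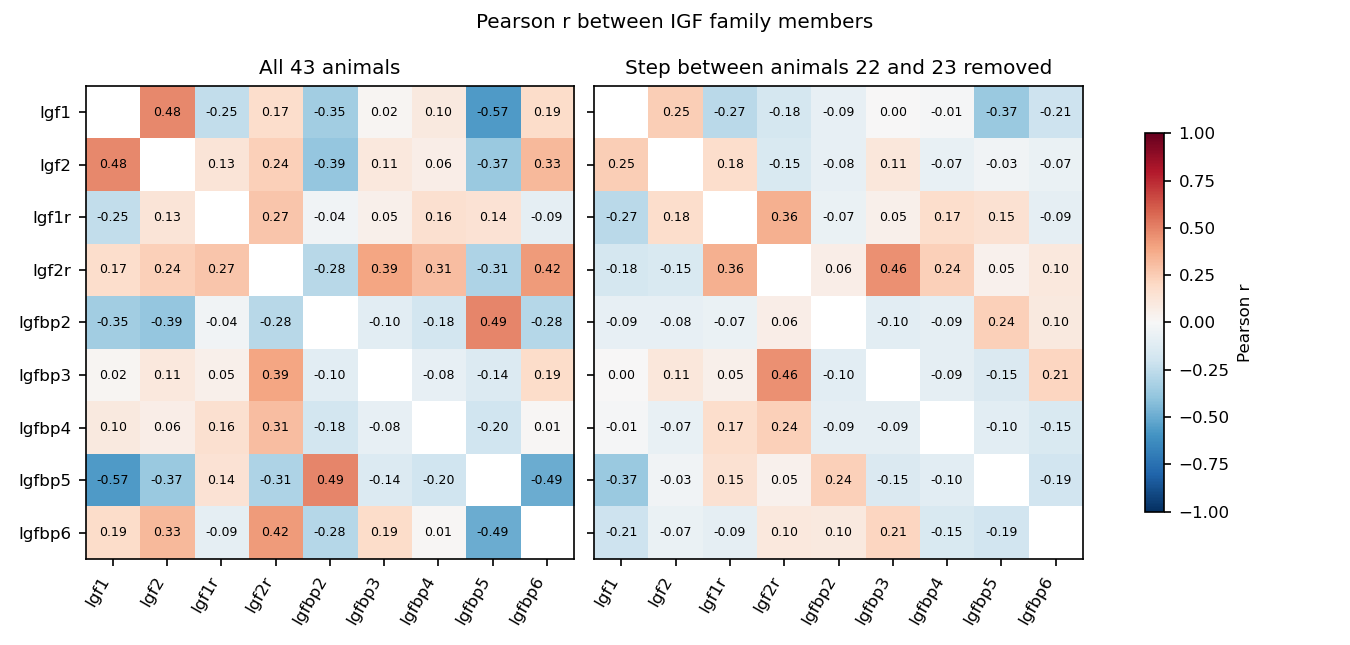
Pearson r between the levels of each pair of members over 43 animals (left) and after the step between animals 22 and 23 was removed from both (right). Red is positive and blue negative. Igf1 with Igfbp5 stands at -0.57 on the left and -0.37 on the right, and Igf2r with Igfbp3 at 0.39 and 0.46.

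The members were next set against scores of marker lists for the cell types and processes of the gland, each score the mean of the centred log2 levels of the passing genes of a list. The 12 scores and 9 members gave 108 relations, of which 35 passed (limma fit of every tested probe set on the score, the genes of the list left out). Scores are RNA levels and share arrays and animals with the members. Only 3 of the 108 passed with the step in the model and 2 with the smooth curve.

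The strongest relation was that of Igfbp5 with the list of folliculostellate and stem cells, the non-hormonal supporting cells of the gland and its progenitors. For that score 3 of the 9 members passed beside 8.1% of all tested probe sets. Igfbp5 was higher by 1.33 ± 0.12 log2 units per unit of score (SE, n = 43, adjusted p = 8.32e-11), at r = 0.870 and rho = 0.881, with permutation p = 1e-05 for each, the smallest that 100000 permutations can give. Without the 2 farthest animals r was 0.844. Within animals 23 to 43 r was 0.780 and within animals 1 to 22 it was 0.822. The relation passed with the step (r = 0.801, adjusted p = 5.39e-07, beside 1.03% of all probe sets) and with the smooth curve (r = 0.746, adjusted p = 0.000109, beside 0.354%) in the model. It passed under all 11 alternative settings and without each animal in turn, where r lay between 0.851 and 0.879. Igfbp2 was also higher with this score (r = 0.461, adjusted p = 0.0230) and Igf1 lower (r = -0.491, adjusted p = 0.0156), neither passing with the step in the model. The call of Igfbp2 was lost without animal 2 (r = 0.425, adjusted p = 0.0526) and without animal 4 (r = 0.407, adjusted p = 0.0691).

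The list was followed gene by gene in the fit on Igfbp5, where 9.18% of all probe sets passed. Of its 6 passing genes, 5 were higher with Igfbp5. These were the stem cell factor Sox2 (r = 0.786, adjusted p = 1.42e-07), the retinaldehyde dehydrogenase Aldh1a1 (r = 0.726, adjusted p = 4.99e-06), the calcium-binding protein S100b, the classical folliculostellate marker (r = 0.711, adjusted p = 1.16e-05), the intermediate filament Vim (r = 0.536, adjusted p = 0.00494) and Aldh1a2 (r = 0.466, adjusted p = 0.0215). The epithelial cadherin Cdh1 had r = 0.120 (adjusted p = 0.677). With the step in the model Sox2, S100b, Aldh1a1 and Vim still passed and Aldh1a2 did not (adjusted p = 0.597), and with the smooth curve only Sox2 did (adjusted p = 0.0223). The score without any 1 gene of the list kept r between 0.809 and 0.874, and the other Igfbp5 probe sets had r = 0.824, 0.807, 0.505 and 0.301 with the whole score.

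**Figure D4:**
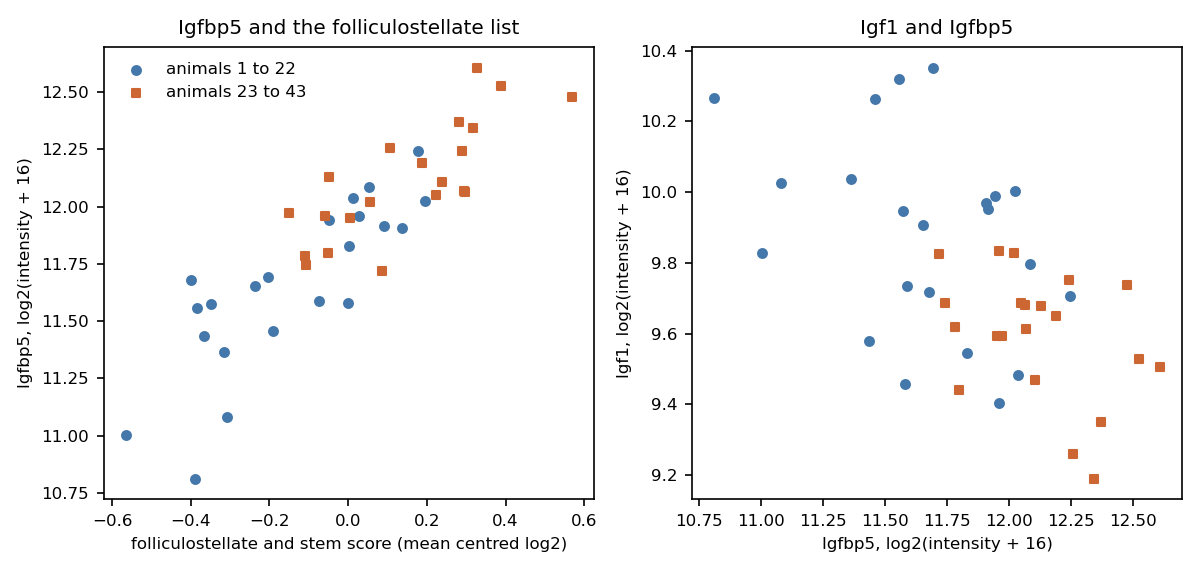
Left, Igfbp5 level (log2 of intensity plus 16) against the folliculostellate and stem score, the mean centred log2 level of 6 genes. Right, Igf1 level against Igfbp5 level. Each point is 1 of 43 animals, squares for animals 23 to 43 and circles for animals 1 to 22, and the left relation runs through both (r = 0.780 and 0.822) while the right one is looser (-0.386 and -0.369).

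Scores of hormone-producing cells passed with members of both directions. On the gonadotroph score 6 of 9 members passed, beside 25.6% of all probe sets, Igfbp5 (r = 0.733, adjusted p = 5.62e-07) and Igfbp2 (r = 0.631, adjusted p = 6.33e-05) being higher with it and Igf2 (r = -0.656, adjusted p = 1.95e-05), Igfbp6, Igf2r and Igf1 lower. For Igfbp5 r was 0.429 within animals 23 to 43 and 0.664 within animals 1 to 22. Its relation passed with the step in the model (adjusted p = 0.0270, beside 0.593% of all probe sets) but not with the smooth curve (adjusted p = 0.0782). Within animals 23 to 43 r was 0.179 for Igfbp2, -0.320 for Igf2, -0.126 for Igfbp6, 0.066 for Igf2r and -0.182 for Igf1. In the same order it was 0.481, -0.405, -0.017, -0.155 and 0.072 within animals 1 to 22. The thyrotroph score was made of Tshb (SD 0.91) and Trhr (SD 0.33) alone, so Tshb weighed more in it. On this score 6 members passed, beside 28.6% of all probe sets. Igfbp2 and Igfbp5 were higher with it and Igf2, Igf2r, Igfbp4 and Igfbp6 lower. The call of Igfbp4 (r = -0.370, adjusted p = 0.0425) was lost on leaving out any of 12 single animals, among them 38 (r = -0.304, adjusted p = 0.112) and 43 (r = -0.359, adjusted p = 0.0633), and also with no filter, with quantile normalization and with ranks. Igf2r was lower with the score (r = -0.623, adjusted p = 0.000122) and passed with the smooth curve (r = -0.457, adjusted p = 0.0284, beside 14.3%) but not with the step (r = -0.352, adjusted p = 0.158). Within animals 23 to 43 its r was -0.420 and within animals 1 to 22 it was -0.238. The former include animals 38 and 43, the lowest in Igf2r and the highest in this score. Over all other animals r was -0.491.

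The somatotroph score was made of Gh1, Ghrhr, Dlk1, Sstr2 and Ghsr, and Dlk1 (SD 0.68) weighed more in it than Gh1 (SD 0.41). On this score 4 members passed, beside 14.2% of all probe sets. Igf2 was lower with it at r = -0.679 (rho = -0.688, adjusted p = 1.96e-05), at r = -0.550 within animals 23 to 43 and -0.273 within animals 1 to 22. Igf1, the ligand of the growth hormone axis, was lower with it at r = -0.417 (adjusted p = 0.0368), a relation that had r = 0.258 within animals 23 to 43 and -0.177 within animals 1 to 22 and lost its call on leaving out any 1 of animals 4, 14, 15, 16, 17, 20 and 34, with r no weaker than -0.369. Igfbp2 was higher with the score at r = 0.554 (adjusted p = 0.00165), at r = -0.115 within animals 23 to 43 and 0.408 within animals 1 to 22. Igfbp5 was higher with it at r = 0.435 (adjusted p = 0.0240), a call lost without animal 4. Its r was -0.400 within animals 23 to 43 and 0.151 within animals 1 to 22, so the direction turned in animals 23 to 43. Lactotrophs are the cells that estrogens expand in this gland, and their score was made of Prl, Drd2, Pou1f1 and Agtr1b. Levels were centred but not scaled, so Agtr1b (level 7.80, SD 0.60) weighed more in it than Prl (SD 0.14). On the lactotroph score 1 member passed, beside 1.39% of all probe sets. This was Igf2r, lower at r = -0.506 (adjusted p = 0.0445), a call lost on leaving out any of 21 single animals. Without animal 38, which was 1 of them, 0 of 15516 probe sets passed on this score (limma), 1740 having an unadjusted p under 0.05, and Igf2r had r = -0.447 (adjusted p = 0.287). On the proliferation score, made of 25 genes of DNA replication and mitosis, 2 members passed, beside 8.73% of all probe sets, Igf2r higher at r = 0.480 (adjusted p = 0.02002) and Igfbp5 lower at r = -0.450 (adjusted p = 0.0291). Within animals 23 to 43, which include animals 38 and 43, r was 0.526 for Igf2r and -0.391 for Igfbp5. Within animals 1 to 22 it was -0.084 and -0.173. Both calls were lost without animal 38, where 4.44% of all probe sets passed. Igf2r then had r = 0.423 (adjusted p = 0.0665) and Igfbp5 r = -0.358 (adjusted p = 0.124). The call of Igf2r was also lost without animal 43 (r = 0.424, adjusted p = 0.06045). A stricter filter, the mean of all probe sets of a gene, ranks, the step and the smooth curve each lost both calls.

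Among the vascular and stromal scores, 6 members passed with the endothelial score beside 15.3% of all probe sets, 2 with the pericyte and smooth muscle score beside 3.33%, and 1 with the fibroblast and matrix score beside 1.31%. With the endothelial score Igfbp2 and Igfbp5 were higher and Igf1, Igf2, Igf2r and Igfbp6 lower. Within animals 23 to 43 r was -0.085 for Igfbp2, -0.074 for Igf1, -0.154 for Igf2, 0.033 for Igf2r and 0.010 for Igfbp6. In the same order it was 0.267, -0.203, -0.099, 0.233 and 0.003 within animals 1 to 22. Igfbp5 stood at r = 0.616, but at 0.221 within animals 23 to 43 and 0.315 within animals 1 to 22. The call of Igf2r there (r = -0.404, adjusted p = 0.0412) was lost on leaving out any of 15 single animals. Igf2 was higher with the pericyte and smooth muscle score at r = 0.554 (adjusted p = 0.0153), at 0.450 within animals 23 to 43 and 0.158 within animals 1 to 22. Igfbp2 was lower with that score (r = -0.451, adjusted p = 0.0493) and higher with the fibroblast and matrix score (r = 0.499, adjusted p = 0.0427), and these calls were lost on leaving out any of 33 and any of 18 single animals. On the pericyte and smooth muscle score 1.73% of all probe sets passed without animal 38 and 5.66% without animal 43. Igfbp2 did not pass without animal 38 (adjusted p = 0.0639) but did without animal 43 (adjusted p = 0.0390).

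On the erythroid score, made of Hbb and Alas2 alone, 4 members passed beside 19.7% of all probe sets (8.87% without animal 43). Igf1r was higher with it and Igf1, Igf2r and Igfbp6 lower. The call of Igf2r (r = -0.382, adjusted p = 0.0486) was lost on leaving out any of 28 single animals, and without animal 43 r was -0.193 (adjusted p = 0.452). Its r was -0.722 within animals 23 to 43 and 0.5495 within animals 1 to 22, so the direction differed between them. The former include animal 43, with the lowest Igf2r level (9.05) and an erythroid score of 1.48. Its part in the -0.722 was not tested. The call of Igfbp6 (r = -0.400, adjusted p = 0.0360) was lost without any 1 of animals 7, 13, 16, 19, 38 and 43, with r = -0.342 (adjusted p = 0.123) without animal 43. Igf1r was higher with it at r = 0.446 (adjusted p = 0.0264), and at r = 0.525 with the step in the model (adjusted p = 0.0380, beside 2.76% of all probe sets). Its r was 0.261 within animals 23 to 43 and 0.664 within animals 1 to 22, and the call was lost without animal 12 (r = 0.410, adjusted p = 0.0532) and without animal 38 (r = 0.409, adjusted p = 0.0504). With the mean of both Igf1r probe sets r was 0.038. All 4 calls on the erythroid score were lost with the difference between the 3' and 5' actin probe sets as a covariate.

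Of the 9 members, 0 passed with the macrophage and leukocyte score (limma, 0.0903% of all probe sets), and with all animals 0 passed with the estrogen-responsive score made of Pgr, Greb1, Gal and Vip (0.322%). At an unadjusted p under 0.05 the counts were 1 and 1. For the estrogen-responsive score r with the members lay between -0.293 for Igf2 and 0.278 for Igfbp5, with all animals. For Igfbp5 r was -0.306 within animals 23 to 43, 0.311 within animals 1 to 22 and 0.033 with the step removed. Vip weighed most in this score, with an SD of 0.91 against 0.21 for Pgr, 0.18 for Greb1 and 0.12 for Gal. The 0 on this score rested on animal 38, which lay apart on it. Without that animal 4.25% of all probe sets and 2 of the 9 members passed, Igfbp5 higher (r = 0.521, adjusted p = 0.0138) and Igfbp6 lower (r = -0.452, adjusted p = 0.0470). Igfbp3 passed with 0 of the 12 scores and had an unadjusted p under 0.05 with 1.

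**Figure D5:**
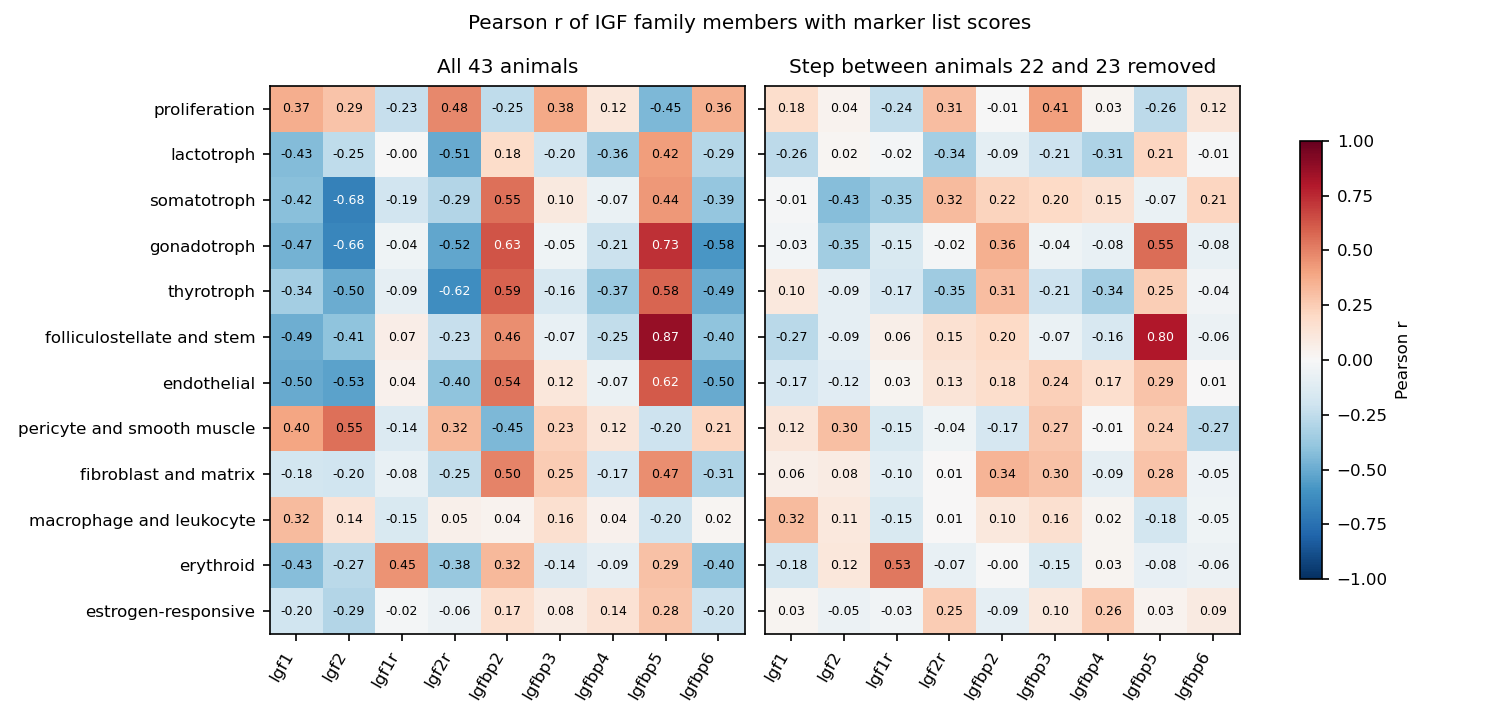
Pearson r of each member (columns) with each of 12 marker list scores (rows) over 43 animals (left) and with the step between animals 22 and 23 removed (right). Red is positive and blue negative. Igfbp5 with the folliculostellate and stem score stands at 0.87 on the left and 0.80 on the right, while most other strong colours on the left are paler on the right.

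The rest of the IGF and insulin pathway was read from the same fits on the members. Of a list of 56 genes, 47 were singly named on the array and 36 passed the filter. The fit on Igf2r had the most, with 16 of the 36 genes higher and 2 lower, or 50.0% beside 37.5% of all probe sets (21.7% higher and 15.8% lower). Higher genes included the adaptor Irs2 (r = 0.665, adjusted p = 1.75e-05), the stanniocalcin Stc2, an inhibitor of the IGF-binding-protein protease Pappa (r = 0.632, adjusted p = 4.52e-05), the PI3 kinase subunit Pik3r2 (r = 0.628) and the kinase Akt2 (r = 0.597). Lower genes were the protease Pappa2, which cuts Igfbp5 and Igfbp3 (r = -0.469, adjusted p = 0.00452), and the adaptor Grb10 (r = -0.377, adjusted p = 0.0277). This count rested on animal 43. Without it 3 of the 35 genes then tested passed, beside 14.7% of all probe sets, each of them higher, Irs2 (r = 0.558), Stc2 (r = 0.539) and Igfbp7 (r = 0.414).

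The fit on Igfbp6 passed for 7 genes higher and 2 lower, beside 9.09% and 9.43% of all probe sets, and for 3 higher without animal 43, beside 13.9%. Stc2 was higher with it at r = 0.652 (adjusted p = 0.000210). The fit on Igfbp5 passed for 1 gene higher, Grb10, and 4 lower, beside 5.48% and 3.71%. Those lower were Stc2 (r = -0.683, adjusted p = 3.00e-05), the PI3 kinase catalytic subunit Pik3ca (r = -0.600, adjusted p = 0.00293), the translation repressor Eif4ebp1 (r = -0.571, adjusted p = 0.00195) and H19, the imprinted RNA next to Igf2 (r = -0.470, adjusted p = 0.0195). Those 4 also passed without animal 43, beside 11.1%. In the fit on Igfbp2, which 4.01% of all probe sets passed, Pappa2 was higher and Stc2, H19, the insulin gene Ins1 and Eif4ebp1 lower. H19 had its strongest relation there, at r = -0.610 (adjusted p = 0.00397).

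The fit on Igf2, which 5.79% of all probe sets passed, had Stc2 (r = 0.560), Pik3ca (r = 0.548) and H19 (r = 0.438, adjusted p = 0.0453) higher and Pappa2 (r = -0.511, adjusted p = 0.0126) lower. With all animals Stc2 thus passed with 5 members, higher with Igf2, Igf2r and Igfbp6 and lower with Igfbp2 and Igfbp5. That with Igfbp2 (r = -0.443, adjusted p = 0.0487) was lost without animal 43 (adjusted p = 0.0692). With the step in the model Stc2 passed with Igf2r (adjusted p = 0.0335) and Igfbp3 (adjusted p = 0.0392) and with none of the other 4 of these members, and with the smooth curve in the model its lowest adjusted p with any member was 0.151, in the fit on Igf2r. The fit on Igfbp3 passed for 1 gene, the kinase Gsk3b (r = 0.599, adjusted p = 0.0263), beside 0.142% of all probe sets. Without animal 43 it passed for 0 of 35 genes (limma, 5 at an unadjusted p under 0.05), beside 0.0129% of all probe sets, and Gsk3b had r = 0.543 (adjusted p = 0.241). In the fits on Igf1, Igf1r and Igfbp4, 0 of the 36 genes passed (limma), and 3, 6 and 2 had an unadjusted p under 0.05. Without animal 43 the fit on Igf1 passed for Pik3ca (r = 0.510, adjusted p = 0.0462) and that on Igf1r for Irs2 (r = 0.527, adjusted p = 0.0341), beside 2.23% and 1.5% of all probe sets.

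With the step in the model the counts were 15 genes for Igf2r (beside 28.9% of all probe sets), 2 for Igfbp3 (Stc2 and Gsk3b, beside 0.805%) and 1 for Igf1r (beside 1.28%), which was Irs2 (r = 0.590, adjusted p = 0.0133). They were 0 for the others (limma), in place of 9 for Igfbp6, 5 for Igfbp5, 5 for Igfbp2 and 4 for Igf2 without the step. At an unadjusted p under 0.05 with the step they were 8 for Igfbp6, 4 for Igfbp5, 4 for Igfbp2, 2 for Igf2, 4 for Igf1 and 0 for Igfbp4. For Igf2r the smooth curve in place of the step gave 10 genes, beside 20.7% of all probe sets. Both of these Igf2r fits included animal 43, on which its count without the step rested.

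The genes most like each member over the 43 animals, by Pearson r among named genes passing the filter, are given as a description. Those of Igfbp5 were Fmo1 (r = 0.849), Plekhb1 (0.834) and Ccdc80 (0.832), and the least like were Tex261 (-0.722) and Vcam1 (-0.718). For Igfbp2 they were Arhgap26 (0.690), Mtss1 (0.687) and Trim2 (0.684), for Igfbp3 Fam234b (0.701), Pgp (0.688) and Myh14 (0.619), for Igfbp4 Cdk12 (0.556), Ergic1 (0.519) and Eef1a2 (0.503), and for Igfbp6 Efemp2 (0.777), Dhx34 (0.766) and Gls2 (0.761). The ligand Igf1 was most like Fam114a2 (0.677), Ggnbp2 (0.657) and Zfp292 (0.657), and Igf2 most like Matn2 (0.687), Wdr25 (0.648) and Ninj1 (0.626) and least like Nrsn1 (-0.678) and Fshb (-0.666), the follicle-stimulating hormone subunit of gonadotrophs. Igf1r was most like Crebbp (0.701), Otud4 (0.666) and S100pbp (0.663) and least like Dnm1l (-0.745), values that stayed at 0.709, 0.667, 0.693 and -0.757 with the step removed. Igf2r was most like Cul7 (0.836), Chpf2 (0.826) and Plod3 (0.826), at 0.722, 0.684 and 0.672 without animal 43.

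The sign of RNA integrity, the difference between the 3' and 5' actin probe sets, had its strongest relation to a member with Igf2r, and animal 43 carried much of it. It had r = -0.455 with Igf2r over 43 animals and -0.040 without animal 43. With Igfbp3 it had r = -0.309 and -0.129 without that animal, and with Igfbp6 -0.226 and -0.090. With Igf1r it had r = 0.146 and 0.288 without animal 43. With the other 5 members r lay between -0.128 for Igf1 and 0.115 for Igf2 over all animals. With this difference as a covariate 31 of the called score relations kept their call and 4 lost it. Those 4 were the relations of Igf1, Igf1r, Igf2r and Igfbp6 with the erythroid score. Of the called pairs 3 kept their call, and that of Igf2r with Igfbp6 was lost. Its part in the remaining relations was not tested beyond these fits.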

How the data were processed

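The authors deposited 1 linear intensity per probe set and array (biotin-labelled RNA, 1 colour), scaled to a common trimmed mean, which with 2% of probe sets trimmed at each end was 500.17 to 500.22. Which software summarised the probes is not stated in the sources read. No columns were identical. To each deposited intensity 16 was added and the log2 taken. Probe sets with a mean log2 above 7.16 were tested.

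Regressions on member levels, list scores and a spline of the animal number were fitted over all tested probe sets with limma 3.58.1 in R 4.3.3 (threshold, adjusted p of 0.05), and permutation p-values (100000 permutations, two-sided) were computed with numpy 2.4.6 in Python 3.11.15. The script was tested on simulated data. Of each member, the 3 most and 2 least similar genes were named. A list score needed 2 passing genes, so the corticotroph and melanotroph list (1) and the posterior lobe list (0) had none. Permutation p-values are not adjusted. The members, the lists and the break after animal 22 were chosen with earlier results of these data known. The alternatives were other added constants, filters, scalings, probe sets, covariates and ranks, and leaving out each animal.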

Additional observations from a re-analysis of the deposited data

How the results depend on the processing

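No paired analysis was possible because the animals form 1 group. The counts were 4 pairs, 35 score relations, 6 members with a curve over animal numbers and 42 pathway calls summed over the 9 fits. Without a filter they were 2, 22, 6 and 27, and with a stricter filter at the 75th percentile, which Igf2, Igfbp2 and Igfbp6 did not pass, 1, 8, 3 and 14. With the mean of all probe sets of a gene there were 2 pairs and 3 curves, with Igf2 not passing. Only 1 of those 2 pairs, Igfbp5 with Igfbp6, was among the 4 called before. Of the score relations called before and still tested there, 22 kept their call and 8 lost it. With the smooth curve as a covariate there were 1 pair, 2 score relations and 12 pathway calls, with the step 0, 3 and 18, and with ranks 26 pathway calls. Leaving out each animal gave 2 to 5 pairs (2 without animal 4), 29 to 36 score relations, 6 curves and 20 to 42 pathway calls (20 without animal 43). Other added constants, scalings and the actin difference kept the 4 counts within 1.5 times. The cause of these changes was not tested.

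The direction turned for 7 relations of those called, all with the animal number in the model. With the smooth curve r was -0.021 for Igf2r and Igfbp6, -0.025 for Igfbp5 and the somatotroph score, 0.046 for Igf1 and the gonadotroph score, 0.022 for Igf2r and the endothelial score, 0.030 for Igf2r and the erythroid score and 0.025 for Igfbp6 and the erythroid score. With the step it was -0.067 for Igfbp5 and the somatotroph score, 0.126 for Igf2r and the endothelial score and 0.0057 for Igfbp6 and the endothelial score. Brightness limits Igf2 most, as its probe set lay close to the filter.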
